A study of Mus musculus with 18 samples.

Results

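The Dlk1-Dio3 domain of mouse chromosome 12 was examined through the ATAC-seq windows that lie in it, each reaching 1 kb up- and downstream of a start site. Members were chosen by position alone, as the windows from Dlk1, which starts at chr12:110690033 of the mm9 build and 32 bases inside the limit set, to Dio3, which ends at 111518439 and 1.561 kb inside it. There were 79 such entries, of which Mir1906-1 and Mir1906-2 share 1 window, so 78 distinct windows were kept of 26065 in the series. They belong to 61 microRNA (miRNA) windows, 7 windows of long noncoding RNAs, 7 of small nucleolar RNAs (snoRNAs) and 3 of protein-coding genes, and all 78 passed the filter on low counts in every fit. The windows crowd together: they form 23 runs of overlapping windows, of which 12 hold a single window and the largest holds 16. Windows of 1 run share reads, so a count of windows is not a count of independent observations. The domain was put forward with results of these data known, and which values drew attention to it is not recorded. The comparisons of region and of sort are therefore given as descriptions, with no p-value printed for a window. Windows past a threshold in them are named only to describe the fit. The domain counts past the threshold stand beside the share of all windows past it, and nothing about the domain is read from them.

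Imprinted genes are read from the copy of 1 parent only. In this domain the paternal copy gives the proteins Dlk1, Rtl1 and Dio3, while the maternal copy gives a string of noncoding RNAs, Meg3, Rian and Mirg, from which a large set of snoRNAs and miRNAs is cut. The choice is set by a methylated control region upstream of Meg3, and the noncoding string is known for strong expression in brain, where miRNAs of its Mirg end act in dendrites and at synapses. Reads here were not separated by parent, so a level sums both copies.

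Nuclei came from C57BL/6J mice aged 2 to 3 months, from the central amygdala (CeA) and from the cortex, which the dissection protocol gives as prefrontal. In the SOM+ libraries, genotype wild type, nuclei were gated on a green fluorescent histone (SOMH2B-GFP) carried by somatostatin cells; the mice were fear-conditioned or controls, with 2 libraries per region and treatment, 1 labelled male and 1 female. In the bulk libraries, from the SOMErbb4-KO line and sorted on the DNA stain NucBlue, mice lacked Erbb4 in SOM+ cells (KO, 3 libraries per region, all labelled male) or were wild type (WT, 2 libraries per region, 1 labelled female and 1 male). Since the genotype label reads KO for all bulk libraries, the titles alone set WT apart. All bulk mice had the control treatment. Libraries were made from 50000 nuclei each. The protocol mentions technical replicates, so p-values measure only the spread between these libraries, which may be technical. SOM+ and bulk libraries differ at once in gate, mouse line and preparation, which cannot be told apart.

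Some libraries went against their labels. Summed over 6 Y-linked genes, the libraries labelled male had 57.7 to 159 CPM and those labelled female had 0 CPM, with 4 exceptions. KO library 2 of both regions is labelled male and had 0 CPM, and WT library 1 of both regions is labelled female and had 41.3 CPM in CeA and 97.0 CPM in cortex. Bulk results are therefore given also without these 4 libraries. The sort could be checked by 7 GABAergic, 7 somatostatin and 8 glutamatergic marker windows. GABAergic markers summed to 517 to 620 CPM in SOM+ libraries, against 361 to 549 CPM in CeA bulk and 149 to 164 CPM in cortex bulk libraries. Somatostatin markers summed to 88.4 to 108 CPM in CeA SOM+ libraries, against 130.5 to 149 CPM in CeA bulk libraries, so in CeA the gate did not raise them. In cortex they summed to 221 to 234 CPM in SOM+ libraries, against 97.8 to 170 CPM in bulk libraries. The sum does not speak for each marker. By edgeR at an adjusted p under 0.05, SOM+ control over bulk WT had 3 of the 7 higher and 2 lower in cortex. Of all windows 31.5% were higher and 30.6% lower there. In CeA 0 of the 7 were higher and 1 lower, beside 13.7% and 9.58% of all windows. The Erbb4 promoter window stood at 26.0 to 41.4 CPM in KO and at 33.6 to 45.8 CPM in WT libraries; the labels do not say which exons are deleted, and bulk nuclei hold mostly other cells, so this checks nothing. Promoter counts per library ran from 2648959 to 14668694, and a domain window held 11 to 306 reads in a library, with 0 reads in none.

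Mature sequences of the miRNAs on which the comparisons below turn are shown first, from RefSeq (GRCm38.p6), with the seed, bases 2 to 8, in capitals. Of 62 miRNA symbols in the domain 61 had a mature sequence, which gave 113 arms with 104 distinct seeds.
miR-127-3p: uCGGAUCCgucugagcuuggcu
miR-323-3p: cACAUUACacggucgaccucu
miR-1197-3p: uAGGACACauggucuacuucu
miR-380-3p: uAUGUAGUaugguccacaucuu
miR-370-3p: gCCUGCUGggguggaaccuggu
miR-410-3p: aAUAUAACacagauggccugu
miR-770-5p: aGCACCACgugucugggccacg
miR-544-3p: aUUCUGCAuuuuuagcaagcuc
miR-3070-5p: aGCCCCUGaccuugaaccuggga
Counted by arm name, 9 seeds were shared, by 18 arms in all. The arm miR-3070-5p has the same name at Mir3070a and Mir3070b and was counted once. Arms that share a seed stood on separate hairpins, though Mir299a and Mir299b lie on opposite strands of the same stretch. A pair of such families joins Mir379, the first hairpin of the large distal miRNA cluster, to Mir1193 and Mir411, and another joins Mir410 to Mir494.
miR-379-5p: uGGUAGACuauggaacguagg
miR-1193-5p: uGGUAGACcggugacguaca
miR-379-3p: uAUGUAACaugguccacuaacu
miR-411-3p: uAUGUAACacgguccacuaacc
miR-410-5p: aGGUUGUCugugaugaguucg
miR-494-5p: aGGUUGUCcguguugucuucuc
An miRNA window is centred on the start of its hairpin, and a hairpin is cut from a longer transcript. A level there is the accessibility of the DNA that encodes it, and the amount of miRNA was not measured.

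Promoters of the genes at the head and the ends of the domain are shown because levels at these windows set the pattern along it. Each runs from 250 bases before to 50 after the start, from RefSeq (GRCm38.p6), with every CpG, the site of DNA methylation, in capitals. The promoters of Dlk1 (chr12:109452573-109452872, plus strand), Meg3 (chr12:109540746-109541045, plus strand) and Dio3 (chr12:110278980-110279279, plus strand) read as follows.
Dlk1: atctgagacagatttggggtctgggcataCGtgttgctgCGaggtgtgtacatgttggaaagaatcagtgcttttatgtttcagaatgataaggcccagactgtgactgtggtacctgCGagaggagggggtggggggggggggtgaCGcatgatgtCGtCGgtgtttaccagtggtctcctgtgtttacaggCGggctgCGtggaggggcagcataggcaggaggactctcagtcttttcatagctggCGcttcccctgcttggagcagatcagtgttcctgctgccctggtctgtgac
Meg3: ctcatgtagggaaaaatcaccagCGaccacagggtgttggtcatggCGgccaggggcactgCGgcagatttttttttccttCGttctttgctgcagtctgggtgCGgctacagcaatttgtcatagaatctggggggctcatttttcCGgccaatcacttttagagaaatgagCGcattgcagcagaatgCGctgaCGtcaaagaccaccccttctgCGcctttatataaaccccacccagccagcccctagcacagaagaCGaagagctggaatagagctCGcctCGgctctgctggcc
Dio3: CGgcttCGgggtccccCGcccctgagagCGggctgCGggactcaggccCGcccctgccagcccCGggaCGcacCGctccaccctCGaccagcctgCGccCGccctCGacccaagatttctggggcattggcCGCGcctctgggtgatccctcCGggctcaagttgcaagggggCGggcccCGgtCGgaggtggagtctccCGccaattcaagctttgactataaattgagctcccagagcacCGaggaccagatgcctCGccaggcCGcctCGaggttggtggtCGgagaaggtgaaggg
Dlk1 has 9 CpGs in this stretch, Meg3 13 and Dio3 25, beside a median of 7 over 32851 promoters. The Dio3os promoter holds 53, more than 99.5% of promoters, that of Mirg 10, and those of Rian and of the second Meg3 start 0 and 1. Both strands were searched for TGACGTCA, the palindromic cAMP response element, and for TATAAA. The first Meg3 promoter holds 1 TGACGTCA, which 1.79% of all promoters hold, and TATAAA on both strands of 1 stretch where the matches overlap; the Dio3 promoter holds 1 TATAAA, and 13.6% of all promoters hold at least 1. A match is a description of letters and not a binding site.

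Levels differed along the domain, and the first Meg3 window was the highest. A level is TMM-scaled CPM, counts per 1e+06 reads per 2 kb of window, where TMM is edgeR's scaling factor. Averaged over the 8 groups, the first window of Meg3 (chr12:110778206-110780205) stood at 26.0 CPM, followed by Mir341 at 22.1, Mir1188 at 21.5 and Mir411 at 20.1 CPM. Mir341 and Mir1188 share reads. At the low end were 3110009F21Rik, a long noncoding RNA, at 4.75 CPM, Dlk1 (chr12:110690033-110692664) at 7.89 CPM, Dio3 (chr12:111516440-111518439) at 9.05 CPM and Dio3os at 9.80 CPM. The 73 windows from Meg3 to Mir3072 lie within 206.9 kb of the Meg3 start. The Dlk1 window lies at -87.9 kb, upstream of it, and the 4 windows of the distal end lie 617.1 to 738.2 kb downstream, so the lowest levels stood at both ends of the domain.

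**Figure D1:**
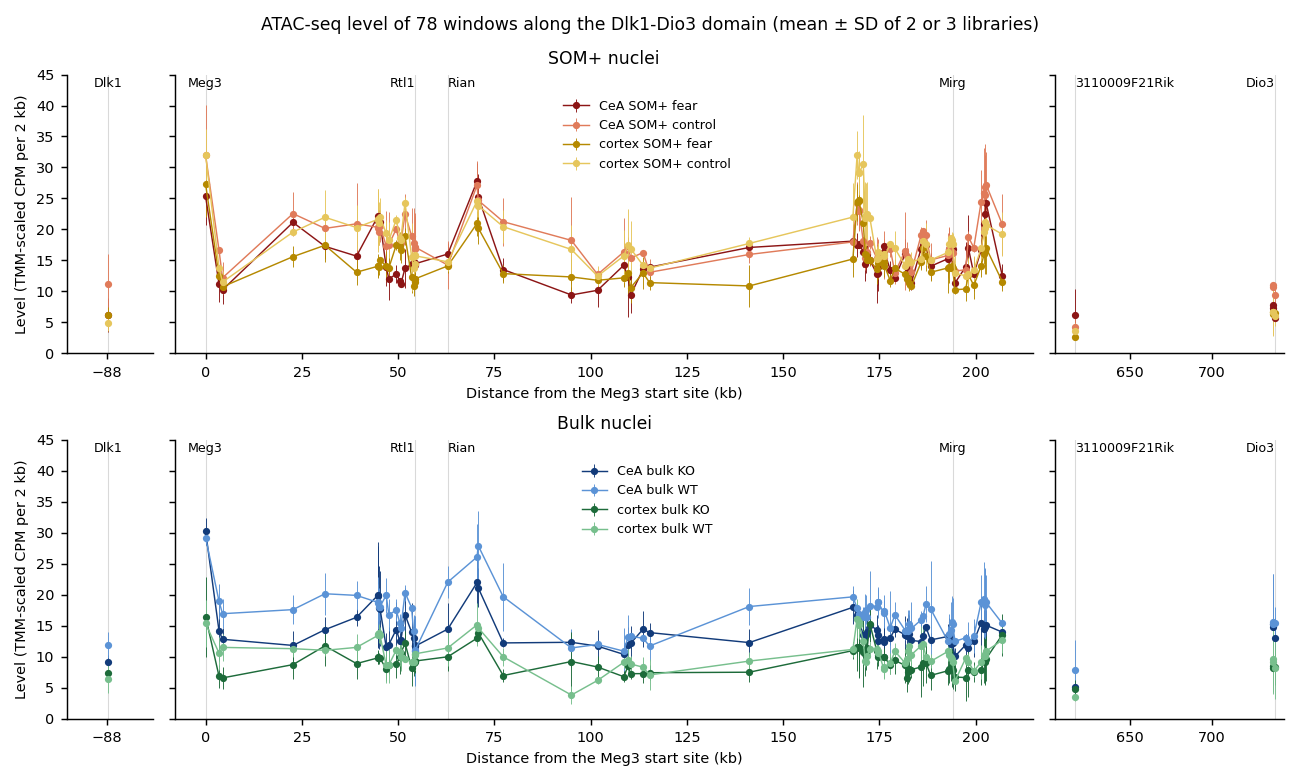
Level of each of the 78 windows (y axis, TMM-scaled CPM per 2 kb) against distance from the Meg3 start site in kb (x axis, with 2 breaks), as the mean ± SD of 2 or 3 libraries for the 4 SOM+ groups (top) and the 4 bulk groups (bottom). The cortex bulk groups run lowest along the noncoding string, with medians over windows of 8.89 and 10.1 CPM, and Dlk1 and 3110009F21Rik are low in all groups, while the Dio3 end is low in all but the CeA bulk groups.

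Set against all promoter windows the domain was of middling accessibility. The median of the 78 group means was 14.5 CPM in CeA SOM+ fear, 17.1 in CeA SOM+ control, 13.8 in cortex SOM+ fear, 17.5 in cortex SOM+ control, 13.5 in CeA bulk KO, 16.8 in CeA bulk WT, 8.89 in cortex bulk KO and 10.1 CPM in cortex bulk WT libraries. Cortex bulk nuclei were the lowest of the 4 combinations of region and sort. The median domain window stood at 0.870 to 1.13 times the median of all windows in CeA SOM+ libraries, at 0.670 to 0.918 times in cortex SOM+, at 0.714 to 0.964 times in CeA bulk and at 0.391 to 0.597 times in cortex bulk libraries. Windows of olfactory receptor genes, which are closed in brain, serve as a floor: the domain median was 4.70 to 8.63 times theirs in CeA SOM+, 9.08 to 14.7 times in cortex SOM+, 3.26 to 5.40 times in CeA bulk and 2.00 to 2.91 times in cortex bulk libraries. This floor itself moved with the sort. The median of ribosomal protein promoters, open in every cell, stood at 16.7 to 33.3 times the olfactory median in CeA SOM+, 47.9 to 57.8 times in cortex SOM+, 9.90 to 18.7 times in CeA bulk and 9.40 to 13.8 times in cortex bulk libraries. How far promoter enrichment takes part in the sort differences below was not tested.

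**Figure D2:**
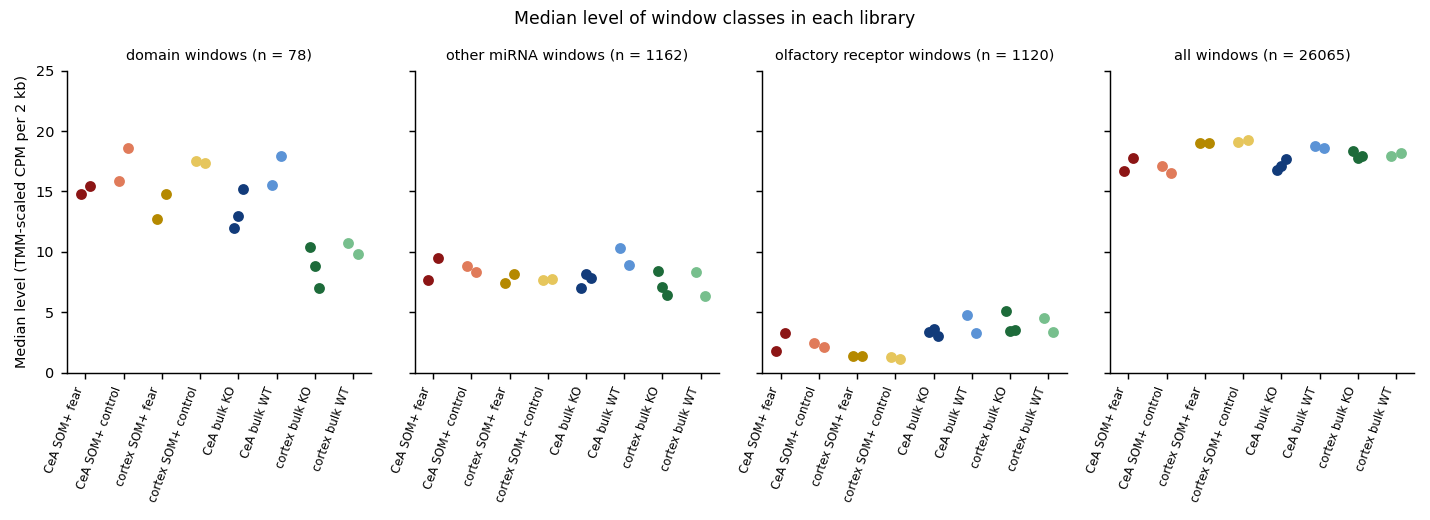
Median level (y axis, TMM-scaled CPM per 2 kb) of the 78 domain windows, 1162 other miRNA windows, 1120 olfactory receptor windows and all 26065 windows, with a point per library and groups along the x axis. Domain medians lie at 12.0 to 18.6 CPM outside cortex bulk and at 7.03 to 10.7 CPM in the 5 cortex bulk libraries, while the medians of all windows lie between 16.5 and 19.2 CPM.

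The 3 coding genes were low to middling in every group. Dlk1, a membrane protein related to the ligands of the Notch receptor, stood at 8.09 and 4.25 CPM in CeA SOM+ fear, 14.5 and 7.78 in CeA SOM+ control, 5.27 and 7.02 in cortex SOM+ fear, and 5.82 and 4.04 CPM in cortex SOM+ control libraries. In bulk libraries it stood at 8.59, 10.4 and 8.24 CPM in CeA KO, 13.4 and 10.3 in CeA WT, 7.81, 8.03 and 6.08 in cortex KO, and 8.08 and 4.81 CPM in cortex WT. In bulk nuclei every CeA value lay above every cortex value. Rtl1, a retrotransposon-derived protein needed in the placenta, stood at 15.4 and 13.5 CPM in CeA SOM+ fear, 13.5 and 20.7 in CeA SOM+ control, 11.1 and 12.9 in cortex SOM+ fear, and 15.6 and 15.8 CPM in cortex SOM+ control libraries. Its window (chr12:110832614-110834613) overlaps those of Mir136 and Mir3071, which lie within the same stretch. The bulk values of Rtl1 were 9.78, 11.8 and 13.5 CPM in CeA KO, 7.07 and 14.9 in CeA WT, 10.6, 7.09 and 10.2 in cortex KO, and 8.65 and 12.2 CPM in cortex WT, which overlap throughout. Dio3, the deiodinase that inactivates thyroid hormone, stood at 5.87 and 5.59 CPM in CeA SOM+ fear, 8.17 and 10.5 in CeA SOM+ control, 6.63 and 6.29 in cortex SOM+ fear, and 7.33 and 4.84 CPM in cortex SOM+ control libraries. Its bulk values were 11.2, 16.8 and 10.8 CPM in CeA KO, 17.3 and 13.6 in CeA WT, 7.02, 11.5 and 6.25 in cortex KO, and 11.7 and 4.64 CPM in cortex WT. CeA bulk was the combination with the highest mean of Dio3, 13.9 ± 3.03 CPM, beside 8.23 ± 3.21 CPM in cortex bulk (SD, n = 5 each). The libraries overlapped, since the lowest CeA bulk value, 10.8 CPM, lay below the highest cortex bulk value, 11.7 CPM. The SOM+ means of Dio3 were 7.53 ± 2.29 CPM in CeA and 6.27 ± 1.05 CPM in cortex (SD, n = 4 each), a pair that does not differ beyond its spread.

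Among the noncoding genes, the first Meg3 window had its lowest group means in cortex bulk nuclei, as did the domain median. Its means there, 16.5 CPM in KO and 15.4 CPM in WT, still lay above the domain medians of 8.89 and 10.1 CPM. The first Meg3 window stood at 28.6 and 22.0 CPM in CeA SOM+ fear, 26.3 and 37.7 in CeA SOM+ control, 23.5 and 31.1 in cortex SOM+ fear, and 29.1 and 35.0 CPM in cortex SOM+ control libraries. In bulk libraries it stood at 32.7, 29.5 and 28.5 CPM in CeA KO, 29.9 and 28.5 in CeA WT, 22.1, 17.9 and 9.37 in cortex KO, and 18.1 and 12.7 CPM in cortex WT. The highest cortex bulk value lay below every CeA bulk value. The second Meg3 window (chr12:110782608-110784607) was lower, at 14.5 ± 2.86 CPM in CeA bulk and 8.53 ± 3.17 CPM in cortex bulk (SD, n = 5 each), with overlap. Rian, host of the snoRNAs (chr12:110841155-110843154), stood at 15.1 ± 2.66 CPM in CeA SOM+ and 14.4 ± 1.15 CPM in cortex SOM+ libraries (SD, n = 4 each), and at 17.5 ± 5.29 CPM in CeA bulk and 10.5 ± 2.33 CPM in cortex bulk libraries (SD, n = 5 each). Mirg, host of the last miRNAs of the string (chr12:110972191-110974190), stood at 16.5 ± 0.910 CPM in CeA SOM+ and 15.7 ± 2.55 CPM in cortex SOM+ libraries (SD, n = 4 each), and at 13.4 ± 3.44 CPM in CeA bulk and 8.40 ± 2.37 CPM in cortex bulk libraries (SD, n = 5 each). Dio3os, antisense to Dio3, shares reads with it and with Mir1247, and stood at 9.02 ± 2.06 CPM in CeA SOM+ and 6.46 ± 2.27 CPM in cortex SOM+ libraries (SD, n = 4 each), and at 15.0 ± 4.44 CPM in CeA bulk and 8.57 ± 3.32 CPM in cortex bulk (SD, n = 5 each).

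**Figure D3:**
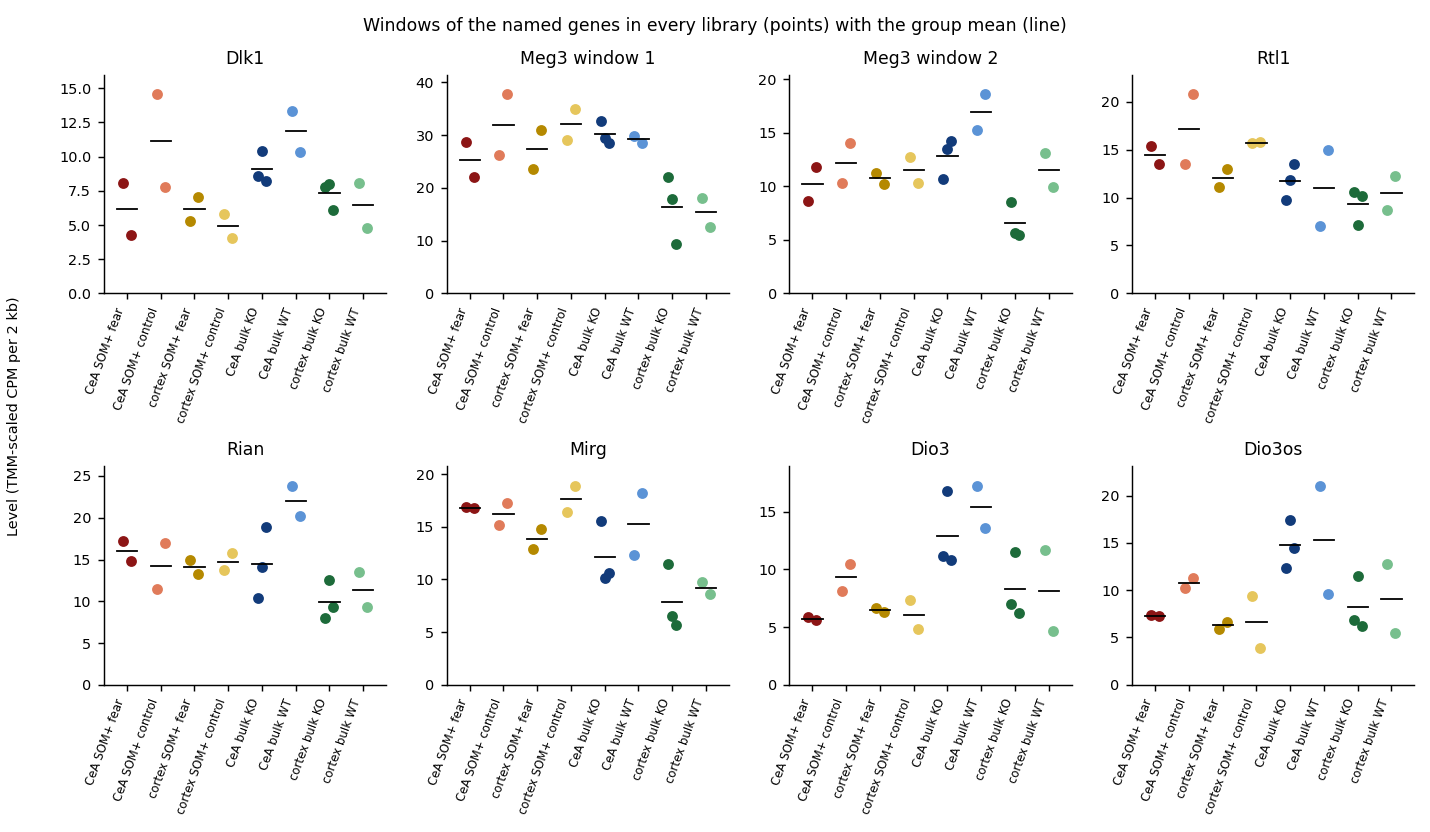
Level (y axis, TMM-scaled CPM per 2 kb) of 8 windows of named genes, with a point per library, a line at the group mean and the 8 groups along the x axis. For the first Meg3 window the cortex bulk points lie at 9.37 to 22.1 CPM, below all other groups but 1 CeA SOM+ fear library at 22.0 CPM. Dio3 and Dio3os have their highest means in CeA bulk nuclei, where the Dio3 points overlap those of cortex bulk.

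In bulk nuclei, fitted levels of the domain windows were higher in CeA than in cortex. All 78 windows had a positive log2 fold change of CeA over cortex, from 0.17 to 1.03 with a median of 0.66, beside a median of 0.03 over all windows tested. Past an adjusted p of 0.05 (edgeR quasi-likelihood F test, Benjamini-Hochberg over 25196 windows) were 44 windows, all higher in CeA, beside 6.9% of all windows called higher; they lie in 19 of the 23 runs, and 0 were lower, beside 9.98%. In 21 windows every CeA library lay above every cortex library, beside 4.75% of all windows, and in 0 below, beside 5.39%. By kind, 33 of 61 miRNA, 5 of 7 snoRNA, 4 of 7 long noncoding and 2 of 3 coding windows were among the called.

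The highest fold changes without overlap were those of the first Meg3 window, Mir370 and Mir544, at log2 values of 0.91 ± 0.20, 0.90 ± 0.20 and 0.87 ± 0.24 (SE). Mir370, between Rian and the snoRNAs (chr12:110855468-110857467), stood at 11.8, 11.8 and 13.1 CPM in CeA KO and 15.8 and 23.5 CPM in CeA WT, against 5.65, 7.57 and 7.62 CPM in cortex KO and 8.96 and 10.97 CPM in cortex WT libraries. Mir544 (chr12:110966535-110968534) stood at 13.7, 12.7 and 11.7 CPM in CeA KO and 12.2 and 23.2 CPM in CeA WT, against 9.24, 6.97 and 4.69 CPM in cortex KO and 10.02 and 8.44 CPM in cortex WT libraries. For both, the lowest CeA value lay just above the highest cortex value. Of the named genes, Dlk1 (0.61 ± 0.20), Rian (0.75 ± 0.21), Dio3os (0.80 ± 0.22), Dio3 (0.81 ± 0.24) and the second Meg3 window (0.77 ± 0.22) were called higher (log2, SE). Mirg, at 0.67 ± 0.24, and Rtl1, at 0.19 ± 0.22, were not. The weakest windows stood together in 3 places, around Rtl1, at Mir411 to Mir380 (0.28 to 0.35) and at Mir3072 (0.17 ± 0.20).

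The size of this difference was steadier than its calls. Without the 4 libraries at odds with their labelled sex, 3 windows were called. Leaving out WT library 2 of CeA or of cortex left 0 called, WT library 1 of cortex 7, WT library 1 of CeA 14, KO library 3 of CeA 20, KO library 2 of cortex 25 and KO library 2 of CeA 26. The median log2 fold change lay between 0.50 and 0.82 over all 10 such fits and between 0.57 and 0.85 over the other alternatives. Cell makeup moved with region: GABAergic marker windows summed to 361 to 549 CPM in CeA bulk against 149 to 164 CPM in cortex bulk libraries, 5 of 7 called higher, and glutamatergic ones to 118 to 158 CPM in CeA bulk against 384 to 505 CPM in cortex bulk libraries, 7 of 8 called lower. Their part in the domain's difference was not tested, and in bulk nuclei more cells with an open domain and more opening per cell cannot be told apart.

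The same comparison is described here for windows outside the domain. Within 1 Mb of the domain, 5 of 30 windows were called higher in CeA bulk than in cortex bulk nuclei, with a median log2 fold change of 0.24. Among 1119 tested miRNA windows elsewhere, 67 were higher and 51 lower, with a median of 0.21, and among 51 imprinted genes outside the domain 6 were higher and 3 lower, with a median of 0.10. Begain, the nearest window outside the lower limit at 382.6 kb, had a log2 fold change of 0.04, and Ppp2r5c, the nearest outside the upper limit at 164.4 kb, of 0.28. Just inside the limits, Dlk1 had 0.61 and Dio3 0.81. The domain was put forward with results known, so no difference from these windows and no edge is read from the values.

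In SOM+ nuclei the regional difference was small and of both signs. The median log2 fold change of CeA over cortex was 0.13, beside 0.04 over all windows, with 55 of 78 positive. Called were 6 windows higher in CeA, beside 21.1% of all windows, and 2 lower, beside 27.1%, by the same edgeR test over 25157 windows. Those higher were Dlk1 (log2 0.69 ± 0.23) and 5 windows within 1 run at the Mirg end, Mir496a (0.52 ± 0.19), Mir410 (0.50 ± 0.17), Mir369 (0.44 ± 0.17), Mir409 (0.43 ± 0.17) and Mir541 (0.42 ± 0.18). Those lower were Mir380 (-0.52 ± 0.17) and Mir411 (-0.39 ± 0.17), which share a run near Mir379 (all SE). Dlk1 overlapped between regions, at 4.25 to 14.5 CPM in CeA and 4.04 to 7.02 CPM in cortex libraries. Its highest value was that of CeA control library 1.

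The groups were separate in 2 windows higher in CeA, Mir410 and Mir770, beside 15.6% of all windows, and in 1 lower, Mir380, beside 28.2%. Mir410 (chr12:110980925-110982924) stood at 23.5 and 24.99 CPM in CeA fear and 23.5 and 31.0 CPM in CeA control, against 14.0 and 19.97 CPM in cortex fear and 19.4 and 22.0 CPM in cortex control libraries. Mir380 (chr12:110949013-110951012) stood at 14.7 and 18.1 CPM in CeA fear and 18.4 and 17.8 CPM in CeA control, against 22.1 and 20.1 CPM in cortex fear and 24.9 and 36.1 CPM in cortex control libraries. They lie 202.7 kb and 170.8 kb from the Meg3 start, and so have opposite signs within the same miRNA cluster. Mir770, within the Meg3 stretch (chr12:110800902-110802901), stood at 22.2 and 20.1 CPM in CeA fear and 20.04 and 25.1 CPM in CeA control, against 14.4 and 16.8 CPM in cortex fear and 19.3 and 19.8 CPM in cortex control libraries, a log2 fold change of 0.37 ± 0.18 (SE) that was not called. The flanks went the other way, with 22 of 30 windows within 1 Mb called lower in CeA, 1 higher and a median of -0.51. Under total count scaling the median over all windows was 0.26, with 24 domain windows higher and 0 lower, so the calls at Mir380 and Mir411 depend on the scaling. Leaving out cortex fear library 1 left 2 called, CeA fear library 2 left 3, CeA fear library 1 and CeA control library 2 left 5 each, and cortex fear library 2 gave 13, while the median log2 fold change lay between 0.11 and 0.25.

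**Figure D4:**
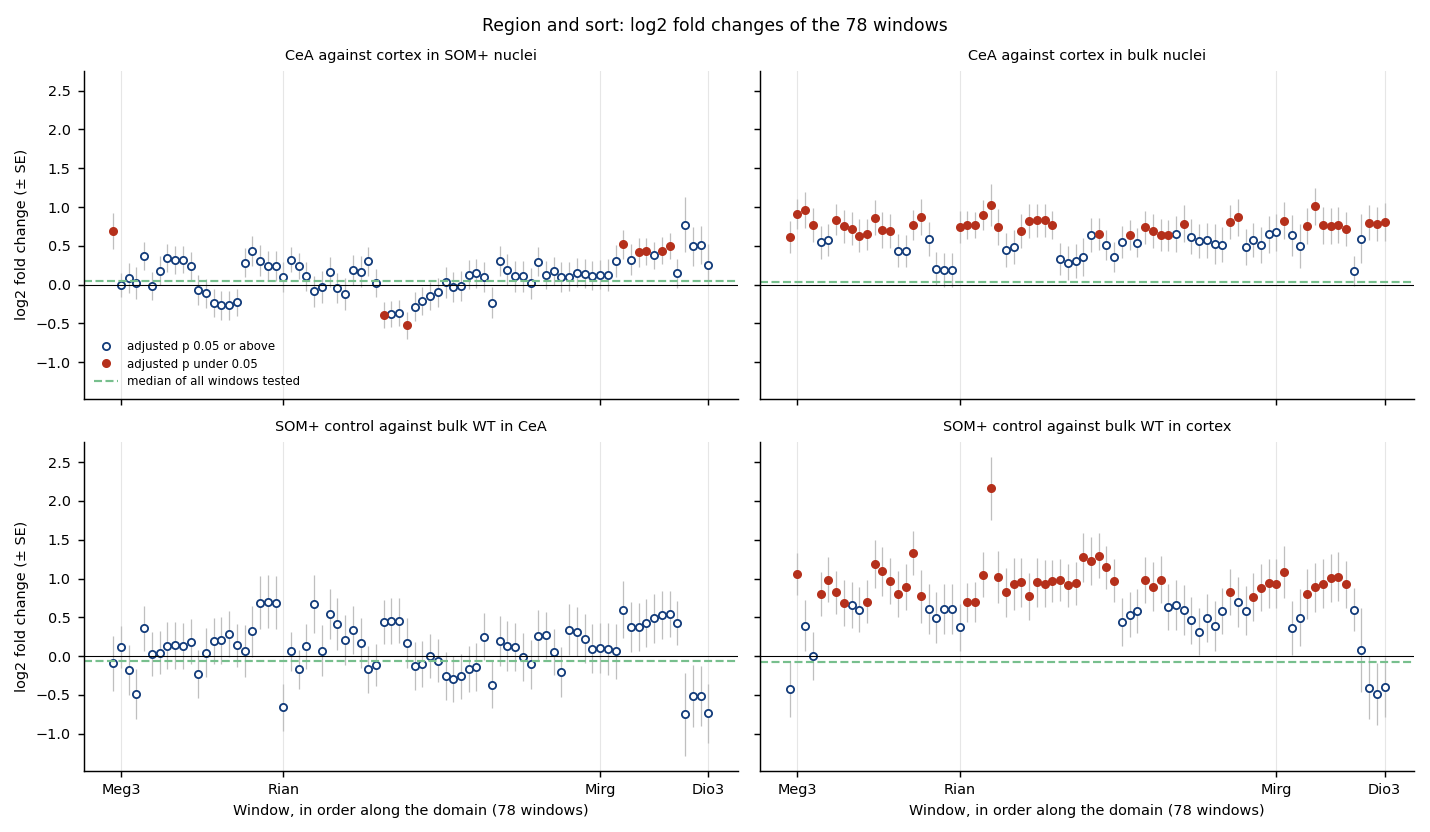
Log2 fold change ± SE (y axis) of the 78 windows in order along the domain (x axis) for CeA over cortex in SOM+ and bulk nuclei (top) and for SOM+ control over bulk WT in CeA and cortex (bottom), filled where called. Dashed lines mark the median of all windows tested. In bulk nuclei all 78 points lie above 0, and in cortex the sort difference is positive in 74 windows and negative at Dlk1 and 3 windows of the Dio3 end.

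Within cortex, SOM+ control nuclei had higher levels than bulk WT nuclei along the noncoding string but not at its ends. The median over windows was 17.5 CPM in SOM+ control against 10.1 CPM in bulk WT libraries, and the median log2 fold change was 0.80, beside -0.07 over all windows. Called higher were 48 windows, in 16 of 23 runs, beside 31.5% of all windows, and 0 were called lower, beside 30.6% (edgeR, 25246 windows; DESeq2 called 49 higher and 0 lower). In 72 windows both SOM+ values lay above both bulk values, beside 39.5% of all windows. All 7 snoRNA windows, 38 of 61 miRNA windows and 3 of 7 long noncoding windows were among the called, and 0 of the 3 coding ones.

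AF357425, a snoRNA of the Rian stretch (chr12:110873222-110875221), had the highest fold change, at log2 2.161 ± 0.40 (SE). It stood at 13.9 and 19.6 CPM in SOM+ control against 2.73 and 4.85 CPM in bulk WT libraries. Mir127, which lies antisense to Rtl1 and directs cleavage of its mRNA (chr12:110830056-110832055), stood at 24.9 and 23.7 CPM in SOM+ control against 9.41 and 9.92 CPM in bulk WT libraries, a log2 fold change of 1.33 ± 0.28 (SE). Mir323, of the cluster that starts with Mir379 (chr12:110949718-110951717), stood at 18.8 and 26.0 CPM in SOM+ control against 9.26 and 8.86 CPM in bulk WT libraries, at 1.30 ± 0.29 (log2, SE). All 3 were named because their SOM+ values did not overlap the bulk ones, so that separation is no finding. The first Meg3 window (1.06 ± 0.27) and Mirg (0.94 ± 0.32) were called, while Rian (0.37 ± 0.30), Rtl1 (0.61 ± 0.32) and the second Meg3 window (0.00 ± 0.31) were not. At the ends the sign turned, with Dlk1 at -0.42 ± 0.36, Dio3 at -0.40 ± 0.39 and Dio3os at -0.41 ± 0.41 (log2, SE), none of them called.

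Limits of this comparison lie in its libraries and its surroundings. Without the 4 libraries at odds with their labelled sex, which leaves 1 bulk WT library, 15 windows were called, and 17 with scaling by total count, which moved the median of all windows to -0.31. Leaving out cortex bulk WT library 2 gave 25, cortex SOM+ control library 2 gave 28 and cortex bulk WT library 1 gave 29, while the median log2 fold change stayed at 0.80 to 0.82; without cortex SOM+ control library 1 there were 36 higher and 2 lower. The flanks moved as far, with 28 of 30 windows within 1 Mb called higher at a median of 0.96; among miRNA windows elsewhere 252 were higher and 229 lower, with a median of -0.02. All 7 GABAergic markers were called higher, at a median of 2.23, and 8 of 8 glutamatergic markers lower, at a median of -2.26. Of glial markers 6 of 8 for astrocytes were lower, at a median of -1.71, and 8 of 10 for oligodendrocytes, at -1.79. Microglial markers had 1 of 7 lower and 0 higher, and vascular ones 3 of 7 lower and 1 higher. The part of these cell types was not tested.

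Within CeA the same contrast of SOM+ control over bulk WT called 0 domain windows, beside 13.7% of all windows higher and 9.58% lower. At an unadjusted p under 0.05 (edgeR) there were 3, Rtl1, the overlapping Mir3071, and Rian, beside 8992 of all 25246 windows. DESeq2 also called 0. The median over windows was 17.1 CPM in SOM+ control against 16.8 CPM in bulk WT libraries, and the median log2 fold change 0.13, beside -0.06 over all windows. Both SOM+ values lay above both bulk values in 17 windows, beside 29.8%, and below them in 5, beside 32.7%. Of the separate windows, Mir496a (0.60 ± 0.36), Mir410 (0.54 ± 0.30) and Mir299b (0.46 ± 0.29) were furthest up, and Dio3 (-0.74 ± 0.38), Rian (-0.66 ± 0.31) and the second Meg3 window (-0.48 ± 0.32) furthest down (log2, SE). Rian stood at 11.5 and 17.0 CPM in SOM+ control against 23.8 and 20.2 CPM in bulk WT libraries. The median was -0.01 without CeA bulk WT library 1, 0.29 without CeA bulk WT library 2, 0.05 without CeA SOM+ control library 2 and -0.02 without the 4 libraries at odds with their labelled sex. Leaving out CeA bulk WT library 2 gave 2 called and CeA SOM+ control library 1 gave 1. The 4 distal windows were all lower in SOM+ nuclei in this region, at log2 -0.75 to -0.51, with 0 called.

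The difference between these regional contrasts, CeA minus cortex, was negative in 73 of 78 windows, with a median of -0.60. It was called in 8 windows, all negative, beside 15.2% of all windows negative and 9.46% positive. The median ranged from -0.75 to -0.25 over all alternatives tried. Leaving out 1 of the 8 libraries left 1 to 7 called, with 1 without CeA bulk WT library 2 and 1 without cortex SOM+ control library 2, and 1 was called without the 4 libraries at odds with their labelled sex. It uses the libraries of both contrasts, so it is no further evidence for either. Within 1 Mb of the domain the difference was called negative in 15 of 30 windows and positive in 0, with a median of -0.80.

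Fear conditioning changed no domain window past the threshold. In cortex SOM+ nuclei 0 windows were called, beside 0% of all windows (edgeR; 15 domain windows and 288 of all windows had an unadjusted p under 0.05; DESeq2 called 0). The smallest adjusted p in the domain was 1. Of the log2 fold changes of fear over control 76 of 78 were negative, with a median of -0.31, beside -0.00 over all windows. That median was -0.19 without cortex fear library 1 and -0.43 without cortex fear library 2. The 30 windows within 1 Mb of the domain had a median of -0.12, with 0 called. In 49 domain windows both fear libraries lay below both control libraries, beside 14% of all windows, and in 0 above, beside 12.6%. The per-library medians over the domain were 12.7 and 14.8 CPM in fear against 17.5 and 17.4 CPM in control libraries.

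The cortex windows furthest down without overlap were Mir3072, Mir882 and DQ267101. Mir3072, the last miRNA of the string (chr12:110985088-110987087), stood at 10.4 and 12.7 CPM in fear against 16.7 and 21.7 CPM in control libraries, a log2 fold change of -0.73 ± 0.25 (SE). Mir882 stood at 8.42 and 13.3 CPM in fear against 17.0 and 18.4 CPM in control libraries, at -0.71 ± 0.26 (log2, SE). DQ267101, a snoRNA, stood at 8.89 and 12.3 CPM in fear against 20.1 and 13.7 CPM in control libraries, at -0.68 ± 0.27 (log2, SE). Each has an adjusted p of 1 by edgeR's test, so none is a call. The named genes had values of 0.31 ± 0.31 (Dlk1), -0.22 ± 0.21 (first Meg3 window), -0.38 ± 0.26 (Rtl1), -0.05 ± 0.26 (Rian), -0.34 ± 0.25 (Mirg) and 0.09 ± 0.35 (Dio3), as log2 with SE.

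In CeA SOM+ nuclei 0 windows were called as well, beside 0% of all windows (10 domain windows and 598 of all windows had an unadjusted p under 0.05; DESeq2 called 0), and the smallest adjusted p by edgeR was 1. Of the fold changes 59 of 78 were negative, with a median log2 of -0.18, beside 0.01 over all windows. That median was -0.03 without CeA control library 2 and -0.32 without CeA control library 1. The 30 windows within 1 Mb of the domain had a median of -0.17, with 0 called. Both fear libraries lay below both controls in 27 domain windows, beside 11.8% of all windows, and above them in 2, Mir540 and Mir882, beside 10%. AF357425 stood at 10.3 and 8.55 CPM in fear against 13.3 and 23.2 CPM in control libraries, at -0.87 ± 0.30 (log2, SE). DQ267101 stood at 7.34 and 11.5 CPM in fear against 15.7 and 15.1 CPM in control libraries, at -0.73 ± 0.31. Mir3072, at -0.71 ± 0.28, was lower without overlap here too, at 11.2 and 13.8 CPM in fear against 17.4 and 24.2 CPM in control libraries. Mir882 stood at 17.1 and 17.1 CPM in fear against 14.9 and 17.0 CPM in control libraries. The test of the difference between regions called 0 windows, with Dlk1 (-1.12 ± 0.45), Mir882 (0.84 ± 0.38) and Mir337 (0.78 ± 0.35) among the 5 with an unadjusted p under 0.05, beside Mir540 and Mir3544.

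**Figure D5:**
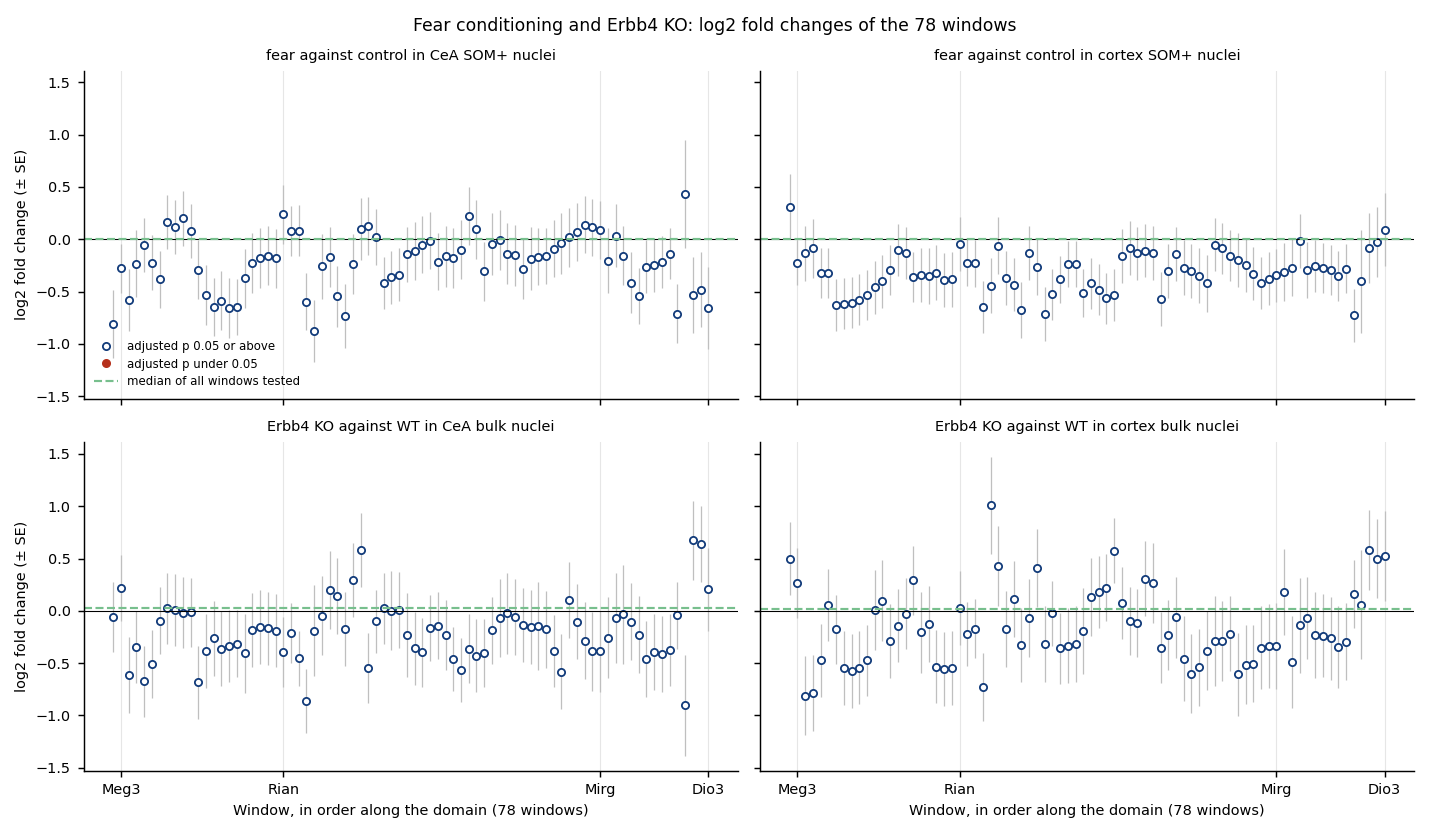
Log2 fold change ± SE (y axis) of the 78 windows in order along the domain (x axis) for fear over control in SOM+ nuclei (top) and Erbb4 KO over WT in bulk nuclei (bottom), CeA left and cortex right, with open points since none was called. Dashed lines mark the median of all windows, near 0; 76 of 78 points lie below 0 for fear in cortex and 65 of 78 for KO in CeA.

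Erbb4 KO likewise gave no called window. In CeA bulk nuclei 0 were called, beside 0% of all windows (1 domain window, Mir370, and 745 of all windows had an unadjusted p under 0.05; DESeq2 called 0), and the smallest adjusted p by edgeR was 0.999. The median over windows was 13.5 CPM in KO against 16.8 CPM in WT libraries, and 65 of 78 fold changes were negative, with a median log2 of -0.19, beside 0.02 over all windows. All 3 KO libraries lay below both WT libraries in 22 windows, beside 14.3% of all windows, and above in 0, beside 14.6%. Mir370 stood at 11.8, 11.8 and 13.1 CPM in KO against 15.8 and 23.5 CPM in WT libraries, at -0.86 ± 0.31 (log2, SE). Mir3070a stood at 10.7, 9.92 and 14.1 CPM in KO against 17.9 and 21.9 CPM in WT libraries, at -0.68 ± 0.35, and Mir770 at 14.5, 10.05 and 10.8 CPM in KO against 15.9 and 19.2 CPM in WT libraries, at -0.67 ± 0.34. The median over the domain turned to 0.12 without CeA WT library 2, and was -0.33 without CeA WT library 1 or CeA KO library 3 and -0.32 without the 4 libraries at odds with their labelled sex. These fold changes carry the term for labelled sex, which in bulk rests on the WT libraries alone. At the distal end 3 of 4 fold changes were positive, with a median log2 of 0.42. The run of Dio3os and Dio3 there averaged 14.3 CPM in KO against 15.5 CPM in WT libraries.

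In cortex bulk nuclei 0 were called, beside 0% of all windows (4 domain windows, AF357425, Mir370, the second Meg3 window and the overlapping Mir1906, and 823 of all windows had an unadjusted p under 0.05; DESeq2 called 0), and the smallest adjusted p by edgeR was 0.945. The median over windows was 8.89 CPM in KO against 10.1 CPM in WT libraries, with 54 of 78 fold changes negative and a median log2 of -0.21, beside 0.02 over all windows. That median was -0.07 without cortex KO library 3, -0.09 without cortex WT library 1, -0.63 without cortex WT library 2 and -0.01 without the 4 libraries at odds with their labelled sex. Without cortex KO library 3, 984 of all windows were called, 105 higher and 879 lower, and 0 of the domain. KO libraries lay below WT libraries without overlap in 11 windows, beside 4.29% of all windows, and above in 4, beside 6.57%. The 4 were AF357425 (1.01 ± 0.46), Mir329 (0.57 ± 0.31), AF357426 (0.43 ± 0.39) and Mir127 (0.29 ± 0.33). AF357425 stood at 14.4, 8.17 and 5.08 CPM in KO against 2.73 and 4.85 CPM in WT libraries. The second Meg3 window stood at 8.56, 5.64 and 5.47 CPM in KO against 13.1 and 9.92 CPM in WT libraries, at -0.78 ± 0.36 (log2, SE). Mir370, at -0.73 ± 0.33, and Mir376b, at -0.60 ± 0.38, were the next lowest. Without the 4 libraries at odds with their labelled sex, 0 windows were called in either region, and the difference between regions was called in 0. That difference was furthest from 0 by unadjusted p at AF357425 (-1.20 ± 0.55, log2, SE), the 1 window under 0.05.

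Genes tied to the domain by pathway were counted by lists drawn up with earlier results known, and gave no common direction with region in bulk nuclei. Of 15 genes of imprinting control and DNA methylation 0 were called in CeA over cortex, and of 10 of the miRNA machinery with a window 0, beside 6.9% of all windows higher and 9.98% lower. Of 13 thyroid hormone genes 2 were higher, Thra (0.86), a nuclear thyroid hormone receptor, and Crym (0.73), which binds the hormone in the cell, and 3 lower, Thrb (-0.48), the other receptor, Slc16a10 (-0.81), a transporter, and Hr (-0.80), a corepressor. Of 17 Notch genes Notch3 (0.95) and Hes5 (0.48) were higher and Hes1 (-1.06) lower, and of 10 Polycomb genes Ezh1 (0.55) and Rbbp4 (0.49) were higher and Ezh2 (-0.59) lower. Of 4 MEF2 factors, which in rat neurons drive the miRNA cluster that ends at Mir410, 0 were called. In cortex, SOM+ control over bulk WT gave 6 higher and 3 lower of the imprinting list, 6 higher and 2 lower of the miRNA machinery, and 2 higher and 1 lower of the MEF2 factors, beside 31.5% of all windows higher and 30.6% lower, with Mef2b (1.27) and Mef2d (1.01) higher and Mef2c (-2.52) lower. In SOM+ nuclei CeA over cortex gave 3 higher and 7 lower of the imprinting list and 0 higher and 6 lower of the miRNA machinery, beside 21.1% of all windows higher and 27.1% lower, with Ago4 (-1.02) and Xpo5 (-0.88) among those lower. All values are log2 fold changes called by edgeR at an adjusted p under 0.05.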

How the data were processed

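ATAC-seq, which marks open DNA by transposase cuts, was measured in 18 libraries. The deposited values used here are counts of reads per promoter window; per the submitters' processing notes the authors used Bowtie2 on mm9, with Trimmomatic 0.32, Picard 1.88, MACS2 and bcl2fastq 2.16.0.10. How reads were counted, duplicates handled and cuts shifted is not given in the sources used here, so strand and overlapping genes cannot be separated. Of 26728 entries 663 repeat a window and were dropped. Levels are TMM-scaled CPM. Tests were edgeR 4.0.16 quasi-likelihood F tests in R 4.3.3 after filterByExpr (minimum count 10, total 15), with Benjamini-Hochberg adjustment over all windows and a threshold of 0.05; the script was tested on simulated data. SOM+ libraries were fitted together, bulk libraries with labelled sex as a term, and SOM+ against bulk over all 18 libraries with that term. All KO libraries are labelled male. In the bulk fit the term therefore rests on WT library 1 against WT library 2, and WT library 1 had Y-linked reads in both regions. The term shifts every fold change of KO over WT, so a sign can differ from that of the group means. Alternatives were DESeq2 1.42.0, cyclic loess with limma 3.58.1, total count scaling, no filter, a replicate block, no sex term, 1 window per run and leaving out each library; sex taken from Y-linked windows and leaving out 4 libraries were added after seeing the data. The domain, its members and the gene lists were chosen with earlier results of these data known. Set to be named were the windows of Dlk1, Meg3, Rtl1, Rian, Mirg, Dio3 and Dio3os. In each comparison these were joined by up to 3 windows per direction with the largest fold change among those without overlap between groups. Where there is none, the 3 with the smallest p were taken, and members of counts of 5 or fewer were added. Not all of these are printed: the fear comparison in CeA and the KO comparisons leave out named genes, and some small counts stand without names. Others were chosen after their values were seen.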

Additional observations from a re-analysis of the deposited data

Results flagged for a closer look

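In 8 of 78 windows SOM+ control over bulk WT was smaller in CeA than in cortex by a test of the difference itself (edgeR, adjusted p under 0.05). Of all windows 15.2% were so called in this direction, and no result about the domain is read from the 8. Within 1 Mb of the domain 15 of 30 windows were so called, with a median difference of -0.80. Cyclic loess called 0 of the domain, total count scaling 2, the fit without the 4 libraries 1, and leaving out each library 1 to 7. The 8 lie in 3 of the 23 runs of overlapping windows, so several share reads. In the run that ends at Rtl1 were Mir3070a, with log2 fold changes of -0.22 in CeA and 1.19 in cortex and a difference of -1.42 ± 0.44 (SE), and Mir127, with 0.14 in CeA and 1.33 in cortex and a difference of -1.19 ± 0.40. The snoRNA window AF357425 stands alone, with 0.67 in CeA and 2.161 in cortex and a difference of -1.49 ± 0.55. The other 5 lie in the run that starts at Mir379. Mir323 had a difference of -1.40 ± 0.41, Mir1197 of -1.35 ± 0.44, Mir666 of -1.15 ± 0.42, Mir758 of -1.14 ± 0.40 and Mir379 of -1.08 ± 0.39. Their fold changes lay between -0.16 and 0.00 in CeA and between 0.97 and 1.30 in cortex. Bulk WT libraries of cortex are the low group at these windows, and 2 libraries per group stand behind each value.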

How the results depend on the processing

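In the comparisons of region and sort the counts of calls moved by more than 1.5 times under several alternatives. Fear and KO comparisons, and their differences between regions, had 0 domain windows called under every alternative run, and the domain medians of the sort difference in cortex and of both regional differences kept their sign. With each library left out, the median of fear ran from -0.32 to -0.03 in CeA and from -0.43 to -0.19 in cortex, and that of KO from -0.33 to 0.12 in CeA and from -0.63 to -0.07 in cortex. For CeA over cortex in bulk nuclei, 44 windows were called; 1 window per run gave 14 of 23, leaving out the 4 libraries 3, and leaving out each library 0 to 60. For CeA over cortex in SOM+ nuclei, 8 were called; cyclic loess and no filter gave 14 each, total count scaling 24, 1 window per run 3, and leaving out each library 2 to 13. For SOM+ control over bulk WT in cortex, 48 were called; total count scaling gave 17, leaving out the 4 libraries 15, 1 window per run 15, and leaving out each library 25 to 38. In CeA, 0 were called; cyclic loess gave 4 and leaving out each library 0 to 2. For the difference between these, 8 were called; cyclic loess gave 0, total count scaling 2, leaving out the 4 libraries 1, 1 window per run 2, and leaving out each library 1 to 7. The cause was not tested, except that 1 window per run tests fewer windows and leaving out libraries tests fewer samples. Total count scaling moved the median of all windows to -0.31 (sort, cortex), -0.22 (sort, CeA), 0.26 (region, SOM+) and 0.13 (region, bulk). Where a group is left with 1 library, that library is assumed to vary like the others.

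No label ties replicate numbers to a shared mouse, litter or day, and the correlations do not exceed 0.1 in every pair, so the numbers were not taken to pair libraries. In SOM+ groups the number coincides with labelled sex, and the libraries at odds with their sex carry the same numbers in both regions. Deviations of same-numbered libraries correlated at -0.01 for fear and control in CeA, 0.19 in cortex, and between -0.33 and 0.41 for KO and WT. Between CeA and cortex they correlated at 0.04 for SOM+ fear, 0.13 for SOM+ control, -0.19, 0.26 and 0.02 for KO and 0.38 for WT. With the replicate block, CeA over cortex in SOM+ nuclei called 15 windows, 11 higher and 4 lower, and in bulk nuclei 34; SOM+ over bulk in cortex called 48, their difference between regions 8, and fear and KO 0.

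Of 1168 values of single windows under alternatives, 989 kept direction and side of the threshold, 50 fell short of it and 7 newly passed it. The other 122 changed sign without a call in either fit, and 0 called values changed sign. A domain window held 11 to 306 reads in a library; how small a change could be detected at this depth was not measured.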
